A study of Homo sapiens with 12 samples.

Results

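The comparison described here sets SKBR3 cells given GSK126 and lapatinib together against SKBR3 cells given lapatinib alone, and it covers 6 of the 12 messenger RNA libraries of the study. SKBR3 is a human breast cancer cell line that carries an amplified ERBB2 gene and depends on the HER2 receptor it encodes. The cells of the combination were kept in 5 µM GSK126 from day -6, received 100 nM lapatinib on top of it on day 0, and were harvested 24 h later (3 libraries, called GSK126 + lapatinib or combination libraries). The cells they were set against were kept in the DMSO vehicle over the same days and received only 100 nM lapatinib on day 0 (3 libraries, called lapatinib libraries). Both groups therefore share the lapatinib dose and time, and differ by 7 days of GSK126. The other 6 libraries were 3 of cells with GSK126 alone and 3 of cells with DMSO alone. They enter the choice of genes tested, the estimate of spread and 1 later section. The table held 22170 genes, and 14179 of them reached a normalized read count of at least 10 in at least 3 of the 12 libraries and were tested. Levels below are these normalized read counts, given for libraries 1, 2 and 3 of a group in that order. All treatments were applied to 1 cell line. Nothing in the labels tells if replicate libraries represent independent cultures, so p-values measure only the spread between these libraries.

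GSK126 blocks the catalytic site of EZH2, the enzyme of Polycomb repressive complex 2 (PRC2), which trimethylates histone H3 at lysine 27 and keeps developmental and lineage genes silent. When the mark is not renewed, it is lost over cell divisions, and genes under it can become transcribed. Lapatinib blocks the kinases of EGFR and HER2, and in HER2-amplified cells this closes both the RAS to ERK cascade and the PI3K to AKT pathway. FOXO transcription factors, which AKT holds in the cytoplasm, then enter the nucleus, and the proliferation programme of such cells declines. In tumour cells, PRC2 is also known to hold down genes of antigen presentation.

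The libraries held 17693103, 29258384 and 27026797 reads on genes with GSK126 + lapatinib and 26134935, 24192532 and 26256488 with lapatinib. GSK126 + lapatinib library 1 stood apart. It had the fewest reads and yet had reads in 21669 genes, against 17338 and 16436 in GSK126 + lapatinib libraries 2 and 3 and 16474, 16434 and 16491 in the lapatinib libraries. Of the genes with 1 to 3 reads in all other libraries together, it had a read in 89.0%, against at most 10.6% for any other library. Counts are therefore also given without this library. Epithelial genes were read in both groups, though not all at the same level. KRT8, a luminal keratin, stood at 147156, 165514 and 199998 in the GSK126 + lapatinib libraries, against 190492, 191328 and 173938 in the lapatinib libraries. The epithelial adhesion gene EPCAM stood at 3846, 4834 and 4935 with GSK126 + lapatinib, against 4530.0, 4812 and 5033 with lapatinib. The groups overlapped for KRT8 and EPCAM. They did not for the luminal keratin KRT19, which had 97866, 115347 and 162540.0 with GSK126 + lapatinib, against 248904, 259382 and 227905 with lapatinib (log2 change -1.00 ± 0.30 (SE), adjusted p = 0.032). The luminal transcription factor gene GATA3 had 2144, 2285 and 2991 with GSK126 + lapatinib, against 4417, 4753 and 4741 with lapatinib (log2 change -0.92 ± 0.30 (SE), adjusted p = 0.0496), and FOXA1 had 3436, 3534 and 2870.2 with GSK126 + lapatinib, against 4357, 4224 and 4623 with lapatinib (log2 change -0.43 ± 0.21 (SE), adjusted p = 0.192). KRT19 and GATA3 passed limma at an adjusted p under 0.05 and FOXA1 did not. The pass of KRT19 was lost when any library other than GSK126 + lapatinib library 3 was left out (adjusted p of up to 0.135), and that of GATA3 when any one of the 6 libraries was left out (adjusted p of up to 0.162). CDH1, the gene of E-cadherin, was near 0 in every one of the 6 libraries, with values of at most 12.4. EZH2 itself had 505, 583 and 569.6 with GSK126 + lapatinib, against 463, 437 and 494 with lapatinib. GSK126 acts on the enzyme and not on its transcript, so this level does not check the labels. EZH2 did not pass the test (log2 change 0.25 ± 0.13 (SE), adjusted p = 0.254).

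Markers of cell types other than epithelium were also followed. The 9 endothelial markers summed to 1556 to 1842 in the GSK126 + lapatinib libraries, against 619 to 725 in the lapatinib libraries, and most of that sum came from CDH5 and ESAM. PECAM1, KDR, TIE1, CLDN5 and EMCN were at 0 in all 3 lapatinib libraries. They were also low with GSK126 + lapatinib, where TIE1, CLDN5 and EMCN had reads only in library 1 (3.73, 3.73 and 8.71). PECAM1 had 4.98, 0 and 0.964 there, and KDR had 22.4, 8.09 and 0.964. The 15 immune cell markers summed to 1200 to 1450 with GSK126 + lapatinib, against 363 to 446 with lapatinib. CSF1R and CD68 carried most of this sum, and CD2 and LYZ were at 0 in every lapatinib library. With GSK126 + lapatinib, CD2 had 2.49, 0 and 0, and LYZ had 2.49, 0 and 12.5. The 13 fibroblast and smooth muscle markers summed to 344 to 493 with GSK126 + lapatinib and to 333 to 366 with lapatinib. Their part in the results below was not tested. In bulk libraries such as these, a change in the share of cells that transcribe a gene and a change in its RNA per cell cannot be told apart.

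Among genes that passed the test, more were higher than lower when GSK126 was added to lapatinib, and large changes were mostly increases. With limma and Benjamini-Hochberg adjustment over all genes tested, 1637 genes (11.5% of those tested) were higher and 900 genes (6.35%) were lower at an adjusted p under 0.05, which is what "called" means below. A further limit of at least 2-fold left 1281 genes higher (9.03%) and 279 lower (1.97%), and at least 4-fold left 751 higher and 38 lower. Groups did not overlap, with all 3 GSK126 + lapatinib libraries on one side of all 3 lapatinib libraries, for 23.7% of tested genes in the higher direction and 23.6% in the lower direction. Without GSK126 + lapatinib library 1 the counts were 1260 higher (8.89%) and 565 lower (3.98%). The quasi-likelihood test of edgeR on the recovered reads called 1663 genes higher (11.7%) and 879 lower (6.2%). Leaving out lapatinib library 1, 2 or 3 gave 455, 467 or 538 genes lower, and leaving out GSK126 + lapatinib library 2 gave 503. When the deposited values were rescaled to the spike-in transcripts, the median over all genes moved to -0.49 on the log2 scale, against -0.03 as deposited, and 327 genes were called higher and 81 lower. Increases thus made up 64.5% of calls as deposited, 80.1% with spike-in rescaling, 74.9% with total-count rescaling and 49.8% with array weights. Directions are given below on the authors' scale, relative to the bulk of genes.

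**Figure D1:**
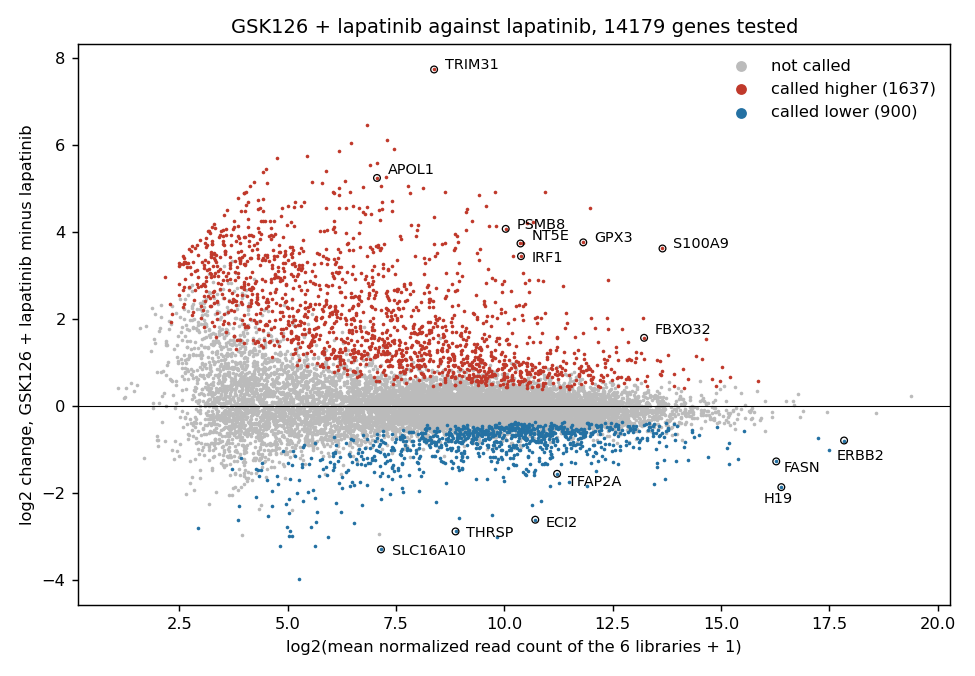
Each point is 1 of the 14179 genes tested; the horizontal axis is the log2 of the mean normalized read count over the 6 libraries plus 1, and the vertical axis is the log2 change of GSK126 + lapatinib over lapatinib. The 1637 genes called higher reach 7.74 (TRIM31), while the 900 called lower include genes with high counts such as ERBB2, FASN and H19.

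Some increases started from transcripts that were barely present. Of the 1637 genes called higher, 252 (15.4%) had a value under 5 in every lapatinib library. A gene this low under lapatinib entered the test only through libraries of other treatments, mostly where it was higher, so the count describes the increases and nothing is read from the share of such genes that was called. The ceiling that defines barely present matters: a ceiling of 2 gave 119 genes and one of 10 gave 395. Since library 1 of the combination had reads in many rare genes, the same count was taken without it, and it was 180. Without library 2 or 3 of the combination the count was 216 or 221. The gene with the largest increase, TRIM31, which encodes an E3 ubiquitin ligase of the tripartite motif family, belongs to this class. TRIM31 stood at 637, 618 and 729 in the GSK126 + lapatinib libraries, against 0.979, 2.13 and 3.75 in the lapatinib libraries (log2 change 7.74 ± 0.38 (SE), adjusted p = 5.46e-08). LMO2, a transcriptional cofactor known from blood formation, stood at 172, 190.1 and 156 with GSK126 + lapatinib, against 1.96, 1.06 and 1.88 with lapatinib (log2 change 6.06 ± 0.48 (SE), adjusted p = 2.49e-06). The groups were far apart for both genes, and the lowest combination library was above the highest lapatinib library by more than an order of magnitude. NPTXR, a receptor of neuronal pentraxins, had 236, 263 and 169.6 with GSK126 + lapatinib, against 0, 1.06 and 6.57 with lapatinib (log2 change 6.46 ± 0.60 (SE), adjusted p = 8.62e-06). GNAI1, an inhibitory G protein subunit, had 301, 335 and 285 with GSK126 + lapatinib, against 0, 7.45 and 9.38 with lapatinib (log2 change 6.11 ± 0.71 (SE), adjusted p = 5.02e-05). SLC5A1, the intestinal sodium and glucose transporter, had 63.5, 43.7 and 48.2 with GSK126 + lapatinib and no read in any lapatinib library, so it was at least 17.4-fold higher against a floor of 3 counts per library. These 5 genes come from unrelated families. All were low under lapatinib, which the choice of the largest increases favours, but NPTXR and GNAI1 were not under 5 in every lapatinib library. The low level was not particular to lapatinib, as the 5 genes had at most 9.88 in any DMSO library. Among the 15 largest increases were also MAPRE2, a microtubule end-binding gene (5.40), and FAM65B (5.15), both on the log2 change scale.

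Antigen presentation by MHC class I rose nearly as a whole. This machinery cuts proteins in the immunoproteasome, carries peptides into the endoplasmic reticulum through the TAP transporter and loads them on HLA molecules. Of its 20 tested genes, 16 were called higher and none lower, with a median log2 change of 2.39, against -0.03 over all genes tested, and 15 were higher without library 1 of the combination. PSMB8, a catalytic subunit of the immunoproteasome, had 1711, 1988 and 2224 with GSK126 + lapatinib, against 128, 125 and 96.7 with lapatinib (log2 change 4.07 ± 0.19 (SE), adjusted p = 5.05e-08). PSMB9, another catalytic subunit, had 199, 226 and 264 with GSK126 + lapatinib, against 6.85, 13.8 and 9.38 with lapatinib (log2 change 4.43 ± 0.34 (SE), adjusted p = 1.9e-06). All 3 combination libraries exceeded every lapatinib library several times over for both subunits. TAP1, the peptide transporter subunit, had 2556, 2730.1 and 2723 with GSK126 + lapatinib, against 334, 358 and 374 with lapatinib (log2 change 2.91 ± 0.14 (SE), adjusted p = 5.46e-08). HLA-C had 717, 709 and 888 with GSK126 + lapatinib, against 101, 114 and 111 with lapatinib (log2 change 2.81 ± 0.22 (SE), adjusted p = 2.18e-06). The HLA genes are near-identical in parts and the handling of reads that match several of them is not stated, so the value of HLA-C is less certain than those of TAP1 and PSMB8. Few genes of the constitutive proteasome were called. Of its 30 tested subunit genes, 1 was called higher, the core subunit PSMA3, with 3070.4, 4028 and 4007 with GSK126 + lapatinib against 2465, 2609.7 and 2659.5 with lapatinib (log2 change 0.51 ± 0.16 (SE), adjusted p = 0.0471), and that call was lost when any library other than GSK126 + lapatinib library 1 was left out (adjusted p of up to 0.179). Its median was 0.23, and it turned to -0.24 with spike-in rescaling. The class II genes, which present peptides taken up from outside and are normally found in immune cells, were 5 higher and 1 lower of 8 tested. Only 8 of 15 in the table reached the filter, and some, such as HLA-DRA, reached it only through libraries with GSK126. Nothing is therefore read from the share called. The higher count was 3 when lapatinib library 1 or 2 or any one of the combination libraries was left out. HLA-DQB1 had 231, 285 and 342 with GSK126 + lapatinib, against 30.4, 31.9 and 30.0 with lapatinib (log2 change 3.16 ± 0.28 (SE), adjusted p = 5.42e-06). CTSS, the lysosomal protease that trims the class II invariant chain, had 180.5, 202 and 176 with GSK126 + lapatinib, against 8.81, 12.8 and 11.3 with lapatinib (log2 change 3.98 ± 0.51 (SE), adjusted p = 0.000122). Both were higher in all 3 combination libraries than in any lapatinib library. The 1 class II gene called lower was HLA-DMA, named after its values were seen (-0.60 on the log2 change scale), and this call was lost when any library other than GSK126 + lapatinib library 3 was left out (adjusted p of up to 0.196).

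Most of the tested interferon-stimulated effector genes rose as well. Interferons bind surface receptors, JAK kinases activate STAT proteins, and these, with interferon regulatory factors such as IRF1, bind short elements in front of the effector genes. Of 53 effectors tested, 40 were called higher and none lower, with a median log2 change of 2.80, or 2.76 with the members at 0 in every lapatinib library set to their lower bound, and 39 were higher without library 1 of the combination. APOL6, an interferon-inducible apolipoprotein L, had 1125, 1148 and 1378 with GSK126 + lapatinib, against 109, 94.7 and 109.8 with lapatinib (log2 change 3.53 ± 0.16 (SE), adjusted p = 5.05e-08). DTX3L, a ubiquitin ligase that pairs with a PARP-family partner, had 485, 455 and 459.7 with GSK126 + lapatinib, against 32.3, 24.5 and 34.7 with lapatinib (log2 change 3.91 ± 0.27 (SE), adjusted p = 8.25e-07). PARP14, an ADP-ribosyltransferase, had 235, 286 and 263 with GSK126 + lapatinib, against 4.90, 3.19 and 5.63 with lapatinib (log2 change 5.58 ± 0.48 (SE), adjusted p = 5.17e-06). For PARP14 the lapatinib values amount to a handful of reads, whereas APOL6 was clearly transcribed under lapatinib. PARP12, another member of that enzyme family, had 576, 569 and 642 with GSK126 + lapatinib, against 107, 87.3 and 77 with lapatinib (log2 change 2.72 ± 0.17 (SE), adjusted p = 5.06e-07). APOL1, the trypanolytic apolipoprotein L of human serum, had 241, 220.0 and 315 with GSK126 + lapatinib, against 3.92, 8.51 and 5.63 with lapatinib (log2 change 5.25 ± 0.51 (SE), adjusted p = 1.18e-05), and HERC6 had 172, 130.2 and 122 with GSK126 + lapatinib, against 3.92, 0 and 1.88 with lapatinib (log2 change 5.86 ± 0.68 (SE), adjusted p = 5.17e-05).

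Among the 21 tested receptors and transcription factors of this pathway, the pattern was uneven, with 4 higher, none lower and a median of 0.17, which was -0.30 with spike-in rescaling. Over all genes tested, 11.5% were higher and 6.35% lower. Without lapatinib library 1 or 2 or GSK126 + lapatinib library 1 or 2, 3 of the 21 were higher. IRF1 had 2312, 2326 and 2702 with GSK126 + lapatinib, against 220.3, 256 and 196 with lapatinib (log2 change 3.45 ± 0.16 (SE), adjusted p = 5.46e-08). The other called members were the kinase JAK1 (0.75), the interferon gamma receptor chain IFNGR1 (0.97) and the factor IRF5 (1.21), all on the log2 change scale, and the call of IRF5 was lost without GSK126 + lapatinib library 1 or 2 or lapatinib library 1 or 2 (adjusted p of up to 0.0774). Of 6 interferon genes in the table none reached the filter for testing, and IFNG, for example, had 7.47, 0 and 0 with GSK126 + lapatinib, against 0, 1.06 and 0 with lapatinib. Sensors of foreign nucleic acid were 6 higher and none lower of 9 tested. DHX58, a cytoplasmic RNA helicase of the RIG-I family, had 172, 194 and 210.1 with GSK126 + lapatinib, against 43.1, 61.7 and 57.2 with lapatinib (log2 change 1.82 ± 0.25 (SE), adjusted p = 0.000191). TMEM173, which encodes the DNA-sensing adaptor STING, had 505, 509 and 466 with GSK126 + lapatinib, against 215, 195 and 198 with lapatinib (log2 change 1.28 ± 0.20 (SE), adjusted p = 0.000578).

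The promoters of these genes are shown because the factors above read short elements there. An interferon-stimulated response element (ISRE) was searched as GAAA and GAAA with any 2 bases between them and a gamma-activated site (GAS) as TTC and GAA with any 3 bases between them, both on either strand, in the 250 bases before the RefSeq start site (GRCh38.p14; the deposited values were made on hg19, and only gene symbols link them). Among the 40 effectors called higher, 30 had a promoter in the table and 15 of them held the ISRE letters, against 2.29% of 10220 tested genes and 3.07% of all 27305 promoters. Among the class I genes called higher, 14 had a promoter and 5 (35.7%) held it. Tested members not called higher held the ISRE letters as well, in 3 of 9 effector promoters (33.3%) and 1 of 2 class I promoters. The GAS letters were in 6 of the 30 effectors called higher (20.0%), in 1 of the 9 not called higher (11.1%) and in 0 of the 14 class I genes called higher, against 5.61% of tested genes. A match in letters is a description and not a binding site. The windows below show 5 genes called higher, on the strand of the gene, with the ISRE and GAS letters in capitals, which for the ISRE read TTTC and TTTC where the match lies on the other strand; the TAP1 window holds 2 overlapping matches, the PARP14 window holds the GAS letters before the ISRE letters, and the IRF1 window holds the GAS letters alone.
TAP1: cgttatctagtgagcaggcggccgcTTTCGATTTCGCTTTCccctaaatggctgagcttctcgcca
PARP14: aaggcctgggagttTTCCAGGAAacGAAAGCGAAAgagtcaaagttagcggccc
PARP12: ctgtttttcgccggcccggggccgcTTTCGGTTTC
CXCL10: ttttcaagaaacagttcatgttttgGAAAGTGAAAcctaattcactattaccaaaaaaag
IRF1: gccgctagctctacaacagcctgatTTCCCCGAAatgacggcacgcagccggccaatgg
The windows lie before the TAP1 start at chr6:32853798-32853863 (minus strand), before PARP14 at chr3:122680785-122680838 (plus strand), before PARP12 at chr7:140062952-140062986 (minus strand), before CXCL10 at chr4:76023684-76023743 (minus strand) and before IRF1 at chr5:132490864-132490922 (minus strand). In PARP12 the match ends at the base before the start site. All 5 genes were higher with GSK126 + lapatinib in each of the 3 libraries.

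Chemokines and cytokines, the secreted signals that draw and instruct immune cells, were mostly higher among the members that could be tested. Of 41 members in the table, 21 passed the filter, and some, such as CXCL10, passed only through libraries with GSK126. Of these 21, 17 were called higher and 1 lower, with a median log2 change of 2.40, and 13 or 14 were higher when any one of the 6 libraries was left out. CX3CL1, the membrane-bound chemokine fractalkine, had 4625, 4377 and 4300.4 with GSK126 + lapatinib, against 1233, 1210.1 and 1112 with lapatinib (log2 change 1.90 ± 0.15 (SE), adjusted p = 1.97e-06). CCL2, which attracts monocytes, had 172, 153 and 165 with GSK126 + lapatinib, against 19.6, 18.1 and 13.1 with lapatinib (log2 change 3.21 ± 0.27 (SE), adjusted p = 3.86e-06), and CCL22 had 353, 337 and 379 with GSK126 + lapatinib, against 56.8, 54.3 and 44.1 with lapatinib (log2 change 2.77 ± 0.24 (SE), adjusted p = 4.93e-06). CXCL10, an interferon-induced chemokine for T cells, had 39.8, 39.6 and 26 with GSK126 + lapatinib and no read in any lapatinib library, so it was at least 11.8-fold higher against the floor of 3 counts per library. The values within each group were close for these 4 genes. Members of the NF-kB pathway were 6 higher and 1 lower of 16 tested. TNFAIP3, the feedback inhibitor A20, had 230.2, 251 and 188 with GSK126 + lapatinib, against 34.3, 27.7 and 45 with lapatinib (log2 change 2.63 ± 0.36 (SE), adjusted p = 0.000217), and RELB had 359.7, 429 and 544 with GSK126 + lapatinib, against 140.0, 168 and 169 with lapatinib (log2 change 1.46 ± 0.25 (SE), adjusted p = 0.00105). TNFRSF1B, a TNF receptor, had 144, 119.7 and 156 with GSK126 + lapatinib, against 5.88, 2.13 and 2.82 with lapatinib (log2 change 5.01 ± 0.51 (SE), adjusted p = 1.62e-05). The NF-kB letters, GGGAA and TCC with any 2 bases between them on either strand, were searched in the 250-base window. They were in 4 of the 10 chemokine and cytokine genes called higher with a promoter (40.0%). They were in 0 of the 3 tested but not called higher, against 1.40% of tested genes. CXCL2, CXCL3, CXCL5, CXCL6 and IL6, which did not reach the filter, held the letters as well. Nothing is therefore read from the contrast between called and uncalled members. As given above, the summed immune cell markers were also higher with GSK126 + lapatinib, with CSF1R at 607, 519 and 437, against 102, 97.9 and 80.7 with lapatinib (log2 change 2.46 ± 0.23 (SE), adjusted p = 9.94e-06), and their part in these increases was not tested.

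**Figure D2:**
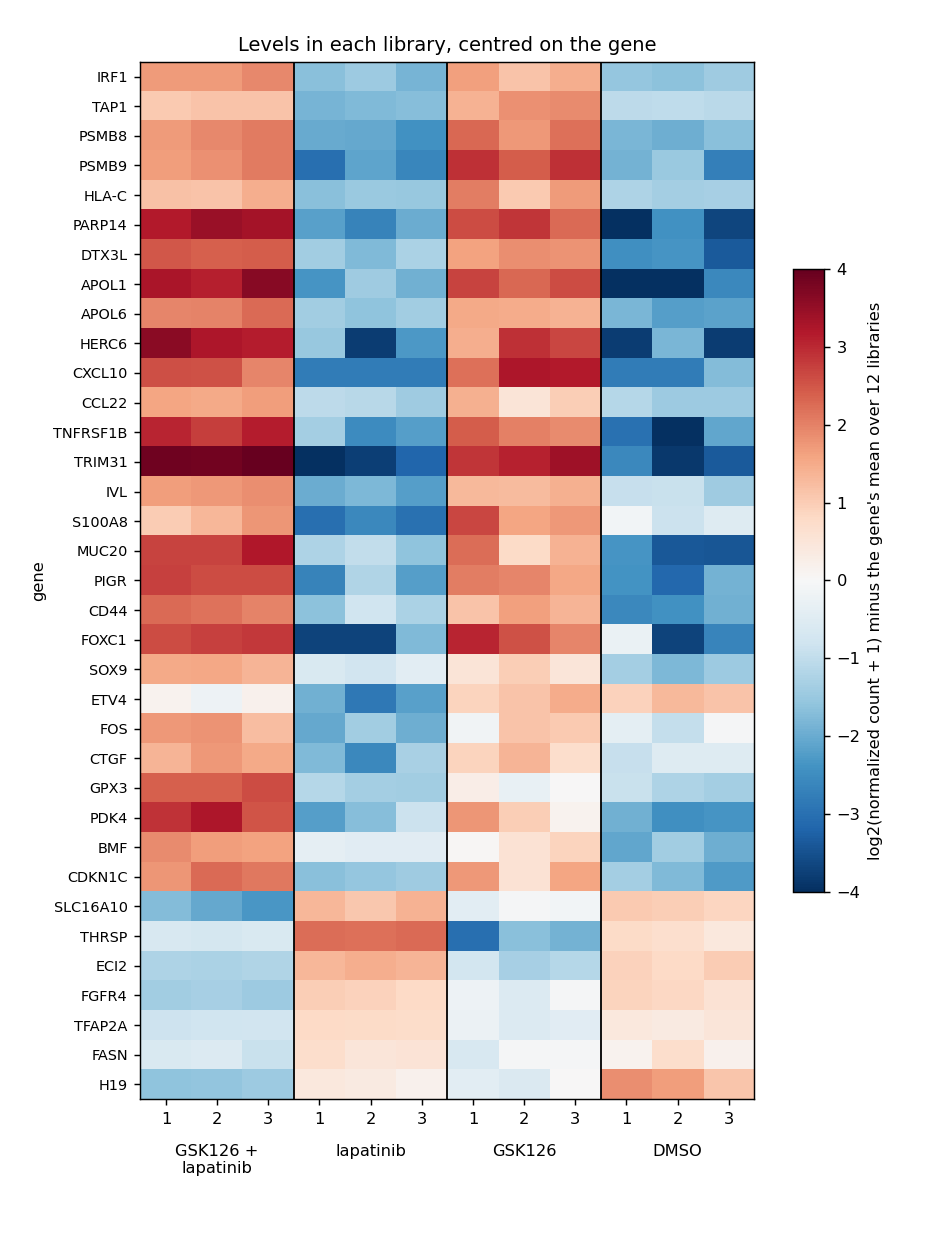
Rows are genes named in the text and columns are the 12 libraries; colour is log2(normalized read count + 1) minus the mean of that gene over the 12 libraries, red above and blue below. The immune genes at the top are red or pale red in all 3 GSK126 + lapatinib libraries and blue in all 3 lapatinib libraries, and the genes from SLC16A10 down show the opposite.

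Genes of STAT3 signalling and mammary involution, several of them acute phase genes, were 10 higher and 1 lower of 20 tested. SERPINA3, an acute phase protease inhibitor, had 301, 342 and 353 with GSK126 + lapatinib, against 39.2, 23.4 and 32.8 with lapatinib (log2 change 3.37 ± 0.24 (SE), adjusted p = 9.19e-07). The transcription factor CEBPD had 770.4, 748 and 817 with GSK126 + lapatinib, against 263, 219 and 241 with lapatinib (log2 change 1.69 ± 0.15 (SE), adjusted p = 6.23e-06). SAA1, serum amyloid A, had 142, 216 and 293 with GSK126 + lapatinib, against 4.90, 5.32 and 16.9 with lapatinib (log2 change 4.58 ± 0.54 (SE), adjusted p = 6e-05), with the third combination library the highest. Genes of milk and mammary secretion were 9 higher and 1 lower of 19 tested. They were 5 higher without library 1 of the combination, and 7 or 8 higher when any other library was left out. LCN2, a siderophore-binding lipocalin, had 446, 525 and 659 with GSK126 + lapatinib, against 21.5, 16 and 11.3 with lapatinib (log2 change 5.00 ± 0.43 (SE), adjusted p = 5.13e-06). PIGR, the receptor that carries immunoglobulin A across epithelia, had 288, 269 and 269 with GSK126 + lapatinib, against 5.88, 18.1 and 8.45 with lapatinib (log2 change 4.68 ± 0.40 (SE), adjusted p = 4.34e-06). STAT5A, the transcription factor of lactation, had 637, 655 and 852 with GSK126 + lapatinib, against 103, 64.9 and 87.3 with lapatinib (log2 change 3.07 ± 0.29 (SE), adjusted p = 9.87e-06), and the mammaglobin gene SCGB2A2 had 2000.1, 2188 and 2369 with GSK126 + lapatinib, against 538, 565 and 563 with lapatinib (log2 change 1.97 ± 0.14 (SE), adjusted p = 1.33e-06).

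Many tested genes of other epithelia were higher with GSK126 + lapatinib. Of 15 tested genes of epidermal differentiation, 9 were called higher and 1 lower, with a median log2 change of 1.5. Only 15 of 31 in the table reached the filter, 1 of them at 0 in every lapatinib library. The count and the median therefore describe the members that passed, and nothing is read from the share called. IVL, the cornified envelope protein involucrin, had 2421, 2526 and 2731 with GSK126 + lapatinib, against 192, 218 and 163 with lapatinib (log2 change 3.74 ± 0.17 (SE), adjusted p = 5.05e-08). S100A8 and S100A9 encode the subunits of calprotectin, which is found in myeloid cells and in stressed keratinocytes. S100A8 had 2344, 2926 and 3926 with GSK126 + lapatinib, against 142, 193 and 146 with lapatinib (log2 change 4.23 ± 0.29 (SE), adjusted p = 7.93e-07). S100A9 had 19574, 20416 and 31472 with GSK126 + lapatinib, against 1858, 2131 and 1696 with lapatinib (log2 change 3.62 ± 0.28 (SE), adjusted p = 1.97e-06). Both were highest in the third combination library, and the groups did not overlap. S100A7, or psoriasin, had 259, 319 and 459 with GSK126 + lapatinib, against 3.92, 8.51 and 2.82 with lapatinib (log2 change 5.90 ± 0.55 (SE), adjusted p = 9.22e-06), while the hair follicle protein gene TCHH had 304, 313 and 284 with GSK126 + lapatinib, against 5.88, 9.58 and 5.63 with lapatinib (log2 change 5.26 ± 0.39 (SE), adjusted p = 1.37e-06). Among the 15 largest increases were also the skin genes SPINK5, which encodes a protease inhibitor (5.55), and DMKN (5.17), on the log2 change scale. CEACAM and mucin genes, which coat luminal surfaces, were 7 higher and 2 lower of 14 tested. Leaving out any one library left 1 of them lower and 5 higher, or 6 higher without GSK126 + lapatinib library 2. CEACAM5, the carcinoembryonic antigen, had 2655, 2568 and 2211 with GSK126 + lapatinib, against 297, 292 and 302 with lapatinib (log2 change 3.05 ± 0.19 (SE), adjusted p = 5.06e-07). The mucin MUC20 had 1324, 1344 and 1891 with GSK126 + lapatinib, against 86.2, 102 and 66.6 with lapatinib (log2 change 4.15 ± 0.37 (SE), adjusted p = 5.77e-06).

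Basal and mesenchymal genes were 10 higher and none lower of 21 tested. CD44, the hyaluronan receptor, had 1360.3, 1273 and 1113 with GSK126 + lapatinib, against 90.1, 163 and 117 with lapatinib (log2 change 3.37 ± 0.24 (SE), adjusted p = 1.08e-06). CAV1, the coat protein of caveolae, had 367, 333 and 414 with GSK126 + lapatinib, against 86.2, 101 and 77.9 with lapatinib (log2 change 2.06 ± 0.18 (SE), adjusted p = 6.12e-06), and KRT15, a basal keratin, had 4242, 4675 and 5462 with GSK126 + lapatinib, against 1619.7, 1655 and 1519 with lapatinib (log2 change 1.58 ± 0.17 (SE), adjusted p = 2.59e-05). The luminal list went the other way. Of 23 luminal and hormone receptor genes tested, 7 were called lower and 1 higher. With any one of the 6 libraries left out none was higher and 5 were lower, or 6 without GSK126 + lapatinib library 3. TFAP2A, a luminal transcription factor, had 1175, 1209 and 1231 with GSK126 + lapatinib, against 3656, 3563 and 3446 with lapatinib (log2 change -1.56 ± 0.12 (SE), adjusted p = 1.7e-06). XBP1, a secretory pathway factor, had 20899, 22423 and 19739 with GSK126 + lapatinib, against 52589, 51598 and 55008 with lapatinib (log2 change -1.34 ± 0.16 (SE), adjusted p = 5.84e-05), and SPDEF had 7097, 7415 and 9107 with GSK126 + lapatinib, against 19409.8, 19353 and 17184 with lapatinib (log2 change -1.25 ± 0.20 (SE), adjusted p = 0.000704). For these 3 transcription factor genes, all 3 combination libraries were below every lapatinib library. The 1 luminal gene called higher, the tight junction gene CLDN4, was named after its values were seen (0.47 on the log2 change scale), and its call was lost when any one of the 6 libraries was left out (adjusted p of up to 0.147).

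**Figure D3:**
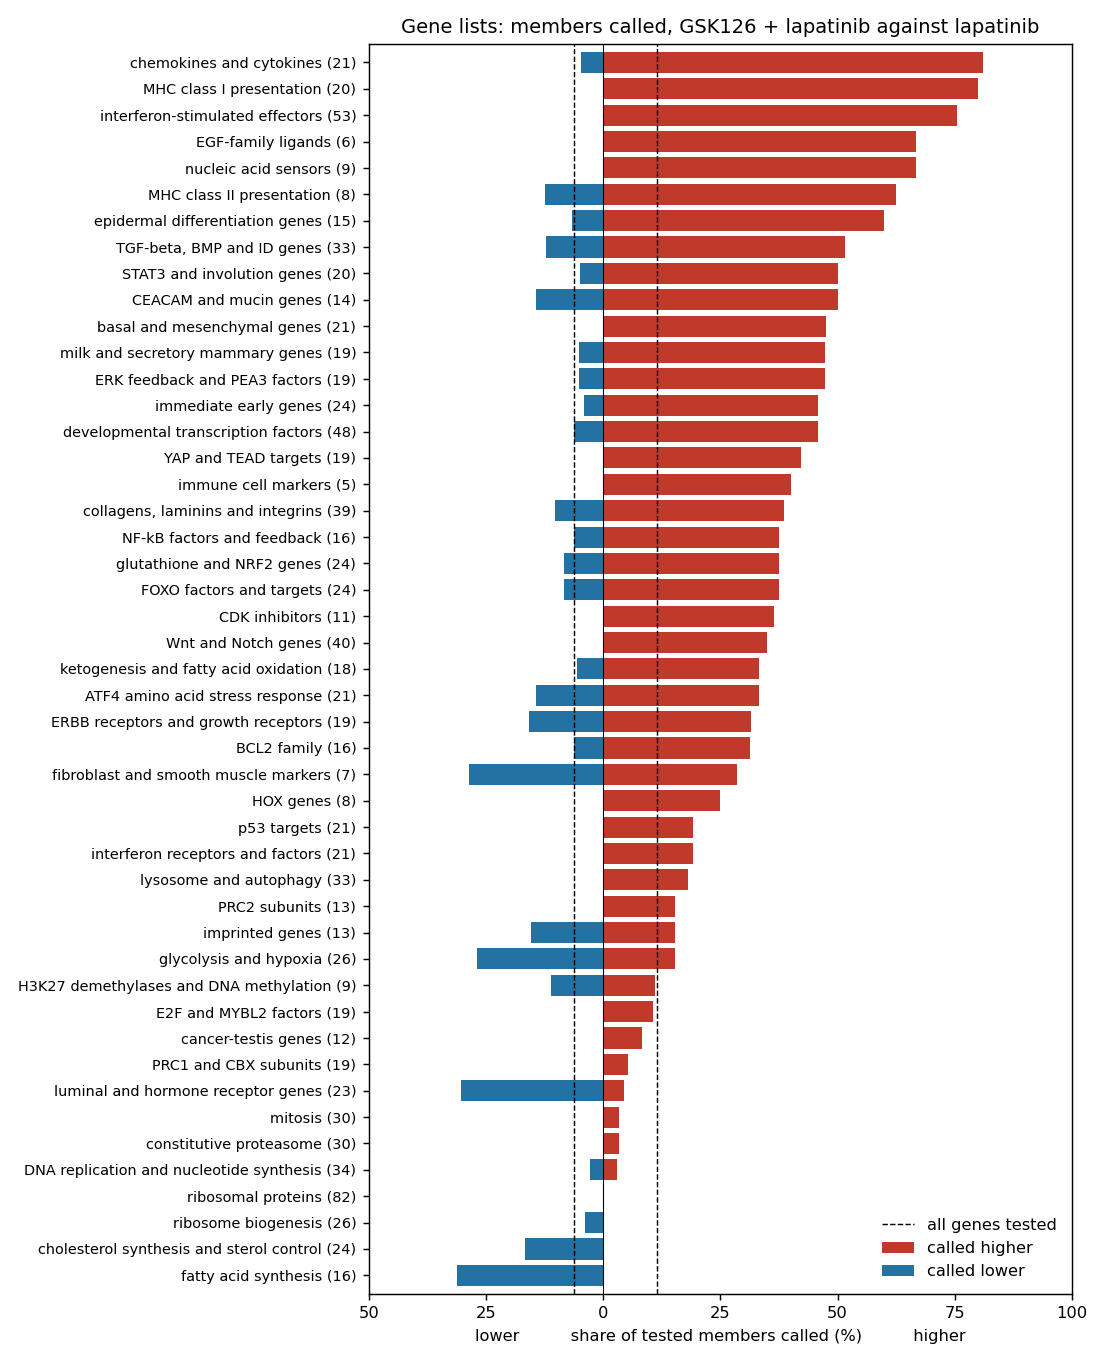
Bars give, for each gene list with at least 5 tested members (number in brackets), the share of tested members called higher (red, to the right) or lower (blue, to the left) in GSK126 + lapatinib against lapatinib; dashed lines mark the shares over all genes tested, 11.5% and 6.35%. Chemokines, MHC class I and interferon-stimulated genes have long red bars of similar length, while fatty acid synthesis and luminal genes have the longest blue bars.

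Developmental transcription factors are the textbook class of PRC2 targets. Of 130 in the table only 48 reached the filter, and of those 22 were called higher and 3 lower, with a median log2 change of 0.91. Some, such as FOXC1, reached the filter only through libraries with GSK126. The count and the median therefore describe the members that passed, and nothing is read from the share called. FOXC1, a forkhead factor of mesoderm and of basal-like breast tumours, had 77.2, 84.1 and 90.6 with GSK126 + lapatinib, against 0, 0 and 2.82 with lapatinib (log2 change 5.76 ± 0.78 (SE), adjusted p = 0.000176). FOXD1, another forkhead factor, had 167, 192 and 200.5 with GSK126 + lapatinib, against 17.6, 10.6 and 14.1 with lapatinib (log2 change 3.65 ± 0.31 (SE), adjusted p = 4.76e-06). Both were low under lapatinib, whereas the following pair was already transcribed there. SOX9 had 1282, 1328 and 1160.4 with GSK126 + lapatinib, against 296, 263 and 336 with lapatinib (log2 change 2.08 ± 0.18 (SE), adjusted p = 5.47e-06), and HEY1, a Notch target, had 524, 552 and 515 with GSK126 + lapatinib, against 99.9, 89.4 and 97.6 with lapatinib (log2 change 2.46 ± 0.17 (SE), adjusted p = 8.39e-07). HOX genes were mostly below the filter, with 8 of 34 tested and 2 called higher. These were HOXC13 (1.12) and HOXC11 (1.38), on the log2 change scale. Among PRC2 genes, 2 of 13 tested were called higher and none lower, a share near that over all genes. C17orf96, which encodes the PRC2 partner EPOP, had 371, 418 and 489.6 with GSK126 + lapatinib, against 198, 171 and 180.2 with lapatinib (log2 change 1.21 ± 0.23 (SE), adjusted p = 0.00218), and PHF19, a Polycomb-like subunit, had 54.8, 34.8 and 57.8 with GSK126 + lapatinib, against 18.6, 13.8 and 17.8 with lapatinib (log2 change 1.47 ± 0.31 (SE), adjusted p = 0.00421). Of 19 PRC1 genes 1 was called higher, against 11.5% of all genes tested. It was RNF2, the ubiquitin ligase of histone H2A (1.23 on the log2 change scale). DNMT1, the maintenance DNA methyltransferase, was lower, with 1318, 1257 and 1304 with GSK126 + lapatinib, against 2070.1, 2056 and 1876 with lapatinib (log2 change -0.63 ± 0.13 (SE), adjusted p = 0.00343).

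The lists of ERK feedback genes and PEA3 factors, of immediate early genes, and of YAP and TEAD targets held more increases than decreases. Of 19 ERK feedback genes and PEA3 factors tested, 9 were called higher and 1 lower, with a median log2 change of 1.02. ETV4, a PEA3-family factor, had 92.1, 72.8 and 94.5 with GSK126 + lapatinib, against 21.5, 10.6 and 17.8 with lapatinib (log2 change 2.35 ± 0.28 (SE), adjusted p = 5.57e-05). DUSP5, a nuclear ERK phosphatase, had 398, 445 and 398 with GSK126 + lapatinib, against 148, 132 and 168 with lapatinib (log2 change 1.47 ± 0.17 (SE), adjusted p = 5.15e-05), whereas DUSP6, its cytoplasmic relative, had 29.9, 18.6 and 20.2 with GSK126 + lapatinib, against 10.8, 14.9 and 16.9 with lapatinib and did not pass the test (log2 change 0.65 ± 0.37 (SE), adjusted p = 0.283). EPHA2, an ephrin receptor, had 642, 668 and 515 with GSK126 + lapatinib, against 246, 211 and 251 with lapatinib (log2 change 1.36 ± 0.25 (SE), adjusted p = 0.00188). The list is therefore not uniform, and a member often read as a marker of ERK output is among those without a call. Immediate early genes were 11 higher and 1 lower of 24 tested. FOS had 119, 126 and 85.8 with GSK126 + lapatinib, against 7.83, 12.8 and 8.45 with lapatinib (log2 change 3.39 ± 0.39 (SE), adjusted p = 5.04e-05). EGR1 had 306, 324 and 230.3 with GSK126 + lapatinib, against 67.6, 67.1 and 63.8 with lapatinib (log2 change 2.09 ± 0.18 (SE), adjusted p = 5.35e-06), and ATF3 had 1772, 1792 and 1535 with GSK126 + lapatinib, against 298, 274 and 252 with lapatinib (log2 change 2.63 ± 0.20 (SE), adjusted p = 1.9e-06). All 3 encode transcription factors that stimuli induce within minutes. Targets of YAP and TEAD were 8 higher and none lower of 19 tested. CTGF, a matricellular growth factor, had 448, 591 and 502 with GSK126 + lapatinib, against 50.9, 28.7 and 70.4 with lapatinib (log2 change 3.41 ± 0.29 (SE), adjusted p = 4.93e-06), and NT5E, the ectonucleotidase CD73, had 2626, 2542 and 2228 with GSK126 + lapatinib, against 167, 198 and 186 with lapatinib (log2 change 3.74 ± 0.28 (SE), adjusted p = 1.39e-06).

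The receptor genes themselves moved in both directions. Of 19 ERBB and other growth receptors tested, 6 were called higher and 3 lower, against 11.5% and 6.35% of all genes tested. Without lapatinib library 2 or 3 or GSK126 + lapatinib library 1, 3 were higher. Without lapatinib library 1 or 3, 1 was lower. These smaller counts lie near the shares over all genes. ERBB2 had 151017, 185485 and 180505 with GSK126 + lapatinib, against 296383, 290536 and 305779 with lapatinib (log2 change -0.79 ± 0.20 (SE), adjusted p = 0.0141). No combination library reached a lapatinib library, but the call was lost without GSK126 + lapatinib library 1 or lapatinib library 1 or 3 (adjusted p of up to 0.0683). ERBB3 had 9741, 9210.3 and 11058 with GSK126 + lapatinib, against 9932, 9958 and 9958 with lapatinib, and its log2 change of 0.00 ± 0.18 (SE) had no call (adjusted p = 0.993). EGFR had 1795, 1624 and 1164 with GSK126 + lapatinib, against 738, 738 and 803 with lapatinib, with no overlap but no call (log2 change 0.98 ± 0.34 (SE), adjusted p = 0.0629). FGFR4 was the receptor with the clearest decrease, at 543, 566 and 522 with GSK126 + lapatinib, against 2799.7, 2683 and 2457 with lapatinib (log2 change -2.28 ± 0.15 (SE), adjusted p = 6.03e-07). Of 6 tested ligands of the EGF family 4 were called higher, and 2 without lapatinib library 1 or 3 or GSK126 + lapatinib library 1. NRG2, a neuregulin that binds ERBB3 and ERBB4, had 508, 535 and 627 with GSK126 + lapatinib, against 146, 142 and 130.4 with lapatinib (log2 change 1.99 ± 0.23 (SE), adjusted p = 4.95e-05), and TGFA, an EGFR ligand, had 39.8, 8.90 and 18.3 with GSK126 + lapatinib, against 0.979, 2.13 and 0 with lapatinib (log2 change 3.43 ± 0.66 (SE), adjusted p = 0.00262).

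Genes that FOXO factors control were 9 higher and 2 lower of 24 tested, with 1 lower when any one of the 6 libraries was left out. FBXO32, the muscle atrophy ubiquitin ligase atrogin-1, had 14716, 14637 and 13637 with GSK126 + lapatinib, against 4883, 4685 and 4920.2 with lapatinib (log2 change 1.57 ± 0.11 (SE), adjusted p = 7.93e-07). PDK4, which shuts pyruvate off from the citric acid cycle, had 203, 256 and 154 with GSK126 + lapatinib, against 4.90, 7.45 and 14.1 with lapatinib (log2 change 4.47 ± 0.46 (SE), adjusted p = 1.75e-05). The insulin receptor gene INSR had 1308, 1272 and 1529.5 with GSK126 + lapatinib, against 455, 483 and 440.1 with lapatinib (log2 change 1.57 ± 0.17 (SE), adjusted p = 2.92e-05), and FOXO1 had 465, 523 and 464 with GSK126 + lapatinib, against 153, 163 and 175 with lapatinib (log2 change 1.56 ± 0.18 (SE), adjusted p = 5.12e-05). The median of the list was 0.30, which was -0.16 with spike-in rescaling. BCL2 family genes were 5 higher and 1 lower of 16 tested. BMF, a pro-apoptotic BH3-only gene, had 4995, 4309 and 4101 with GSK126 + lapatinib, against 1054, 978 and 978 with lapatinib (log2 change 2.15 ± 0.22 (SE), adjusted p = 1.64e-05). PMAIP1, the BH3-only gene NOXA, had 117, 139 and 132 with GSK126 + lapatinib, against 14.7, 12.8 and 4.69 with lapatinib (log2 change 3.60 ± 0.38 (SE), adjusted p = 2.38e-05). CDK inhibitor genes were 4 higher and none lower of 11 tested, with CDKN2B at 1630.4, 1481 and 1316 with GSK126 + lapatinib, against 294, 256 and 284 with lapatinib (log2 change 2.40 ± 0.23 (SE), adjusted p = 1.01e-05). CDKN1C, the imprinted inhibitor p57, had 136, 193 and 173 with GSK126 + lapatinib, against 11.8, 12.8 and 14.1 with lapatinib (log2 change 3.59 ± 0.35 (SE), adjusted p = 1.28e-05), and CDKN1A, the inhibitor p21, had 571, 606 and 549 with GSK126 + lapatinib, against 216, 192 and 145 with lapatinib (log2 change 1.65 ± 0.21 (SE), adjusted p = 0.000116). The fourth was CDKN2A at 0.61 on the log2 change scale, a call lost when any one of the 6 libraries was left out (adjusted p of up to 0.165).

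Few genes of cell division were called in either direction, whereas 11.5% of all genes tested were called higher and 6.35% lower. Of 34 DNA replication genes 1 was called higher, MCM10, and 1 lower, POLE; the call of MCM10 was lost without GSK126 + lapatinib library 1 or 2 or lapatinib library 1 or 2 (adjusted p of up to 0.103), and that of POLE without GSK126 + lapatinib library 2 or lapatinib library 1, 2 or 3 (adjusted p of up to 0.0658). Of 30 mitosis genes 1 was called higher, UBE2C, which encodes a ubiquitin-conjugating enzyme of the anaphase-promoting complex (log2 change 0.65 ± 0.11 (SE), adjusted p = 0.00131). The median of the mitosis list was 0.32, against -0.03 over all genes tested, and it was -0.14 with spike-in rescaling. Without overlap between the groups, 13 of the 30 were higher and 1 lower, against 23.7% and 23.6% of all genes tested. MKI67, the proliferation antigen, had 1283, 1344 and 1307 with GSK126 + lapatinib, against 1040.0, 1118 and 1074 with lapatinib, and did not pass the test (log2 change 0.28 ± 0.16 (SE), adjusted p = 0.276). CCND1 (log2 change 0.45 ± 0.15 (SE), adjusted p = 0.0556) and MYC (log2 change 0.30 ± 0.41 (SE), adjusted p = 0.708) did not pass it either. Of 19 E2F-linked genes 2 were called higher, near the share over all genes, and 1 without GSK126 + lapatinib library 1 or 2. CDK6, a G1 kinase, was one of them, at 1169, 1351 and 1179 with GSK126 + lapatinib, against 236, 252 and 235 with lapatinib (log2 change 2.35 ± 0.17 (SE), adjusted p = 1.33e-06). None of the 82 tested ribosomal protein genes was called in limma, and of 26 ribosome biogenesis genes 1 was called, MYBBP1A, which was lower (-0.81 on the log2 change scale).

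Signals of the TGF-beta and BMP family were 17 higher and 4 lower of 33 tested, with a median log2 change of 1.11. When any one of the 6 libraries was left out 13 were higher, and without lapatinib library 3 only 2 were lower. BMP3 had 1948, 1903 and 1289.5 with GSK126 + lapatinib, against 61.7, 44.7 and 60.1 with lapatinib (log2 change 4.91 ± 0.28 (SE), adjusted p = 2.16e-07). GDF15, a stress-induced ligand of the family, had 535, 528 and 507 with GSK126 + lapatinib, against 46, 66 and 46.9 with lapatinib (log2 change 3.30 ± 0.30 (SE), adjusted p = 6.83e-06), whereas the activin subunit INHBB fell, with 6651, 7152 and 6602 with GSK126 + lapatinib, against 17196, 16341 and 16687 with lapatinib (log2 change -1.30 ± 0.12 (SE), adjusted p = 6.1e-06). Ligands of one family thus moved in opposite directions. Wnt and Notch genes were 14 higher and none lower of 40 tested, and 10 to 12 were higher when any one of the 6 libraries was left out. DLL4, a Notch ligand best known from vessels, had 851, 879 and 793 with GSK126 + lapatinib, against 70.5, 51.1 and 89.2 with lapatinib (log2 change 3.60 ± 0.47 (SE), adjusted p = 0.000134). CDH5, the endothelial cadherin, had 1002, 976 and 739 with GSK126 + lapatinib, against 81.3, 56.4 and 60.1 with lapatinib (log2 change 3.77 ± 0.25 (SE), adjusted p = 7.86e-07), while VWF, another endothelial gene, was lower, with 63.5, 21.8 and 42.4 with GSK126 + lapatinib, against 157, 140.5 and 125 with lapatinib (log2 change -1.82 ± 0.39 (SE), adjusted p = 0.00522). The tested endothelial genes thus did not move together, and their part in the Notch values was not tested. WNT4, a mammary Wnt ligand, had 607, 650.4 and 909.8 with GSK126 + lapatinib, against 232, 232 and 195 with lapatinib (log2 change 1.69 ± 0.23 (SE), adjusted p = 0.000163). Collagen, laminin and integrin genes were 15 higher and 4 lower of 39 tested, with 2 lower when lapatinib library 1 or 3 or GSK126 + lapatinib library 2 or 3 was left out. ITGB6, an epithelial integrin that activates TGF-beta, had 2402, 2503 and 2207 with GSK126 + lapatinib, against 441, 434 and 531 with lapatinib (log2 change 2.34 ± 0.15 (SE), adjusted p = 5.85e-07), and COL18A1 was lower, with 474, 454 and 489 with GSK126 + lapatinib, against 1639, 1538 and 1524 with lapatinib (log2 change -1.73 ± 0.17 (SE), adjusted p = 1.36e-05).

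Some single members went against their list, and they were named after their values were seen. Among developmental transcription factors, the 3 genes called lower were all Iroquois homeobox genes. IRX3 had 1942, 2275 and 2911 with GSK126 + lapatinib, against 6119, 5911 and 5403 with lapatinib (log2 change -1.31 ± 0.24 (SE), adjusted p = 0.00165), and IRX5 had 244, 268 and 251 with GSK126 + lapatinib, against 589.5, 567 and 676 with lapatinib (log2 change -1.26 ± 0.23 (SE), adjusted p = 0.0019). IRX2 had 1171, 1341 and 1585 with GSK126 + lapatinib, against 2429, 2525 and 2488 with lapatinib (log2 change -0.87 ± 0.20 (SE), adjusted p = 0.00711). For each of the 3, no combination library reached the lowest lapatinib library. BCL3, an NF-kB cofactor that stood in both the NF-kB and the STAT3 list, was lower (log2 change -1.19 ± 0.22 (SE), adjusted p = 0.00162). TGFB3 had 1813, 1662 and 1586 with GSK126 + lapatinib, against 6353, 5968 and 5659 with lapatinib (log2 change -1.83 ± 0.19 (SE), adjusted p = 1.94e-05), unlike TGFB2, which had 500.3, 547 and 483 with GSK126 + lapatinib, against 80.3, 119 and 117 with lapatinib (log2 change 2.28 ± 0.22 (SE), adjusted p = 1.28e-05). The mucin MUC5B (-1.14), the keratin KRT4 (-1.17), the immediate early factor KLF2 (-0.91), the FOXO list member CITED2 (-0.91) and the collagen COL4A5 (-2.14) were lower as well, on the log2 change scale. Other calls against a list were lost when 1 library was left out. They were IL11 without GSK126 + lapatinib library 3 or lapatinib library 1, 2 or 3 (adjusted p of up to 0.0792), DUSP4 when any library other than GSK126 + lapatinib library 3 was left out (adjusted p of up to 0.148), BCL2L11, which encodes BIM, when any one of the 6 libraries was left out (adjusted p of up to 0.151), PRLR without GSK126 + lapatinib library 3 or lapatinib library 3 (adjusted p of up to 0.0545) and CPT2 when any one of the 6 libraries was left out (adjusted p of up to 0.114).

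Large decreases were fewer than large increases, with 38 genes called lower at least 4-fold and 751 called higher at least 4-fold. The genes with the largest decreases had varied roles. SLC16A10, a transporter of aromatic amino acids, had 31.1, 25.1 and 20.2 with GSK126 + lapatinib, against 268, 226 and 277 with lapatinib (log2 change -3.30 ± 0.21 (SE), adjusted p = 6.03e-07). ECI2, an isomerase of unsaturated fatty acid oxidation, had 470.5, 458 and 481 with GSK126 + lapatinib, against 2754, 3058 and 2849 with lapatinib (log2 change -2.62 ± 0.15 (SE), adjusted p = 2.56e-07), and SPTSSB, a small subunit of serine palmitoyltransferase, had 136, 172 and 117 with GSK126 + lapatinib, against 831, 783 and 909 with lapatinib (log2 change -2.58 ± 0.23 (SE), adjusted p = 5.42e-06). THRSP, a lipogenic gene of breast and liver, had 112, 107 and 114 with GSK126 + lapatinib, against 819.6, 816 and 839 with lapatinib (log2 change -2.89 ± 0.28 (SE), adjusted p = 1.25e-05). For these 4 genes the libraries of a group were close to each other, and the groups were far apart. TARP, which lies within the T cell receptor gamma locus, had 205, 197 and 198 with GSK126 + lapatinib, against 1671, 1621 and 1575 with lapatinib (log2 change -3.01 ± 0.19 (SE), adjusted p = 4.99e-07). PNMT, the adrenaline-forming methyltransferase whose gene neighbours ERBB2, had 28.6, 22.6 and 19.3 with GSK126 + lapatinib, against 169, 182 and 122 with lapatinib (log2 change -2.69 ± 0.39 (SE), adjusted p = 0.000314). HAAO, of the kynurenine pathway, had 13.7, 8.90 and 4.82 with GSK126 + lapatinib, against 98.9, 93.7 and 71.3 with lapatinib (log2 change -3.22 ± 0.39 (SE), adjusted p = 6.73e-05). Of the 15 largest decreases, 3 lost their call when 1 library was left out: KIAA1210 when any library other than GSK126 + lapatinib library 1 was left out (adjusted p of up to 0.0897), SERPINF1 when any one of the 6 libraries was left out (adjusted p of up to 0.0963) and CLCA2 without GSK126 + lapatinib library 3 or lapatinib library 1, 2 or 3 (adjusted p of up to 0.117).

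The lipid synthesis genes that were called were lower with GSK126 + lapatinib. Of 16 tested genes of fatty acid synthesis 5 were lower, and 2 to 4 when 1 library was left out, the fewest (2) without lapatinib library 1 or GSK126 + lapatinib library 3, and 3 without lapatinib library 2 or 3 or GSK126 + lapatinib library 2. FASN, fatty acid synthase, had 48611, 50784 and 40168 with GSK126 + lapatinib, against 121510.0, 105258 and 109792 with lapatinib (log2 change -1.27 ± 0.21 (SE), adjusted p = 0.000859). Of 24 tested genes of cholesterol synthesis 4 were lower, against 6.35% of all genes tested. Without lapatinib library 2 or GSK126 + lapatinib library 1 or 2 it was 2 of 24, near the share over all genes. MVK, mevalonate kinase, had 1063, 1219 and 1495 with GSK126 + lapatinib, against 2493, 2606 and 2352 with lapatinib (log2 change -0.99 ± 0.19 (SE), adjusted p = 0.00215). FASN and MVK both fell without overlap between the groups. Glycolysis and hypoxia genes were 4 higher and 7 lower of 26 tested, with 4 lower without lapatinib library 1 or 2 or GSK126 + lapatinib library 2. NDRG1, a hypoxia-induced gene, had 9537, 9214 and 9366 with GSK126 + lapatinib, against 15578, 14612 and 14870.5 with lapatinib (log2 change -0.68 ± 0.13 (SE), adjusted p = 0.00202). ADM, the hypoxia-induced peptide adrenomedullin, went the other way, with 229, 192 and 225 with GSK126 + lapatinib, against 39.2, 28.7 and 31 with lapatinib (log2 change 2.68 ± 0.25 (SE), adjusted p = 9.22e-06). Among genes of ketone body formation and fatty acid oxidation 6 were higher and 1 lower of 18, and 3 were higher without lapatinib library 2. ACAA2, a mitochondrial thiolase, had 2416, 2968 and 2958 with GSK126 + lapatinib, against 1246, 1303 and 1234 with lapatinib (log2 change 1.13 ± 0.14 (SE), adjusted p = 7.14e-05).

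Stress and detoxification genes added large single changes. Of 21 genes of the amino acid response controlled by ATF4, 7 were higher and 3 lower. CHAC1, a glutathione-degrading enzyme, had 1788, 1747 and 1821 with GSK126 + lapatinib, against 233, 238 and 254 with lapatinib (log2 change 2.88 ± 0.19 (SE), adjusted p = 7.05e-07). DDIT4, an inhibitor of mTOR signalling, had 9975, 11288 and 11425 with GSK126 + lapatinib, against 4019.8, 3826 and 3919.9 with lapatinib (log2 change 1.47 ± 0.14 (SE), adjusted p = 1.28e-05), and MTHFD2, a mitochondrial folate enzyme, was lower, with 2915, 2982 and 2617 with GSK126 + lapatinib, against 5897, 5789.8 and 5905 with lapatinib (log2 change -1.05 ± 0.16 (SE), adjusted p = 0.000415). Members of one stress response therefore split by direction. Genes of glutathione and NRF2 biology were 9 higher and 2 lower of 24, with none lower without lapatinib library 1 or 2 or GSK126 + lapatinib library 1 or 2, and 1 without lapatinib library 3. The higher count was 6 to 8 when any one of the 6 libraries was left out. HMOX1, heme oxygenase, had 1029, 1118 and 1228 with GSK126 + lapatinib, against 379.9, 337 and 345 with lapatinib (log2 change 1.66 ± 0.15 (SE), adjusted p = 6.71e-06). Lysosome and autophagy genes were 6 higher and none lower of 33, against 11.5% and 6.35% of all genes tested. Among the higher ones were the autophagy receptor SQSTM1 (0.75) and GABARAPL1 (1.02), on the log2 change scale. Of 21 p53 targets 4 were higher (CDKN1A, PMAIP1, GDF15 and PHLDA3) and none lower, against the same shares of all genes, 11.5% and 6.35%. Of 12 cancer-testis genes 1, GAGE1, was called higher (3.05 on the log2 change scale), a share near that over all genes. GAGE1 belongs to a family of near-identical copies. Imprinted genes were 2 higher and 2 lower of 13, against 11.5% and 6.35% of all genes tested. H19, an abundant imprinted noncoding RNA, had 35457, 36136 and 39435 with GSK126 + lapatinib, against 145215, 139434 and 120831 with lapatinib (log2 change -1.87 ± 0.21 (SE), adjusted p = 4.39e-05), and PEG10 had 986, 979 and 827 with GSK126 + lapatinib, against 3226, 3188 and 3591 with lapatinib (log2 change -1.84 ± 0.18 (SE), adjusted p = 1.29e-05).

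Whether GSK126 acted differently in the presence of lapatinib was asked with the interaction, the GSK126 + lapatinib change over lapatinib minus the GSK126 change over DMSO. The comparisons of GSK126 + lapatinib with lapatinib and of GSK126 with DMSO share no library. Of the 1637 genes called higher with lapatinib present, 1606 (98.1%) also had a GSK126 mean above the DMSO mean, against 45.5% of all genes tested, and their median log2 change was 1.84 with lapatinib present and 1.44 without it. Of the 900 called lower, 34 (3.78%) had a GSK126 mean above the DMSO mean, and the medians were -0.77 with lapatinib present and -0.48 without it. The interaction was called for 3 genes (0.0212% of those tested) in limma, 2 of them higher (0.0141%) and 1 lower (0.00705%), and 836 genes had an unadjusted p under 0.05; edgeR on the recovered reads called 3. GSK126 libraries were the most variable of the study, with a median SD of 0.43 on the log2 scale, against 0.20 with GSK126 + lapatinib, 0.12 with lapatinib and 0.24 with DMSO, and without GSK126 library 1 the count was 18.

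**Figure D4:**
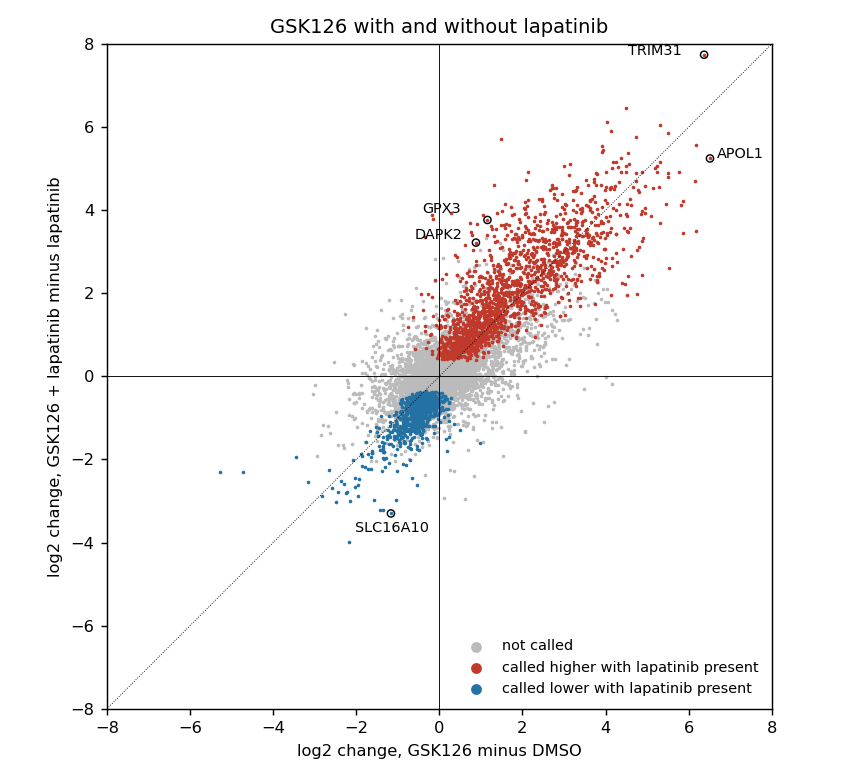
Each point is 1 of the 14179 genes tested; the horizontal axis is the log2 change of GSK126 over DMSO and the vertical axis that of GSK126 + lapatinib over lapatinib, with the dotted line where both are equal. Genes called higher (red) and lower (blue) with lapatinib present lie mostly in the quadrants where both changes have the same sign, and GPX3, DAPK2 and SLC16A10 lie off the line.

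The gene with the firmest difference was GPX3, a secreted glutathione peroxidase. It had 6347, 6420.4 and 7466 with GSK126 + lapatinib, against 544, 477 and 465 with lapatinib, and 1468, 983 and 1215 with GSK126, against 651, 511 and 473 with DMSO. Its log2 change was 3.76 with lapatinib present and 1.16 without it, an interaction of 2.61 ± 0.24 (SE, adjusted p = 0.00138), and the interaction stayed called when any of the 12 libraries was left out. SLC16A10 had 31.1, 25.1 and 20.2 with GSK126 + lapatinib, against 268, 226 and 277 with lapatinib, and 77.8, 101 and 98.1 with GSK126, against 219, 210.5 and 192 with DMSO. Its interaction was -2.13 ± 0.30 (SE, adjusted p = 0.0466). DAPK2, a death-associated protein kinase, was named after its values were seen; it had 207, 212 and 266 with GSK126 + lapatinib, against 25.5, 24.5 and 20.6 with lapatinib, and 109.5, 99.7 and 134 with GSK126, against 74.8, 51.4 and 59.8 with DMSO. Its interaction was 2.34 ± 0.33 (SE, adjusted p = 0.0466). With 1 of the 12 libraries left out, the SLC16A10 call was lost in 10 of 12 fits and the DAPK2 call in 11 of 12, with adjusted p of up to 0.254 for both without lapatinib library 3. The SLC16A10 call was kept without GSK126 library 1 or GSK126 + lapatinib library 1, and the DAPK2 call without GSK126 library 1. Genes such as ETV4 illustrate changes that could not be separated in this design. ETV4 had 157, 186 and 239.5 with GSK126, against 159, 209 and 186 with DMSO, a log2 change of 0.06, while its change with lapatinib present was 2.35; the interaction was 2.29 ± 0.39 (SE, adjusted p = 0.102) and had no call. FBXO32 had 4812, 5010.4 and 5234 with GSK126, against 1082, 1104 and 1131 with DMSO, and its interaction was -0.61 ± 0.15 (SE, adjusted p = 0.282), also without a call.

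**Figure D5:**
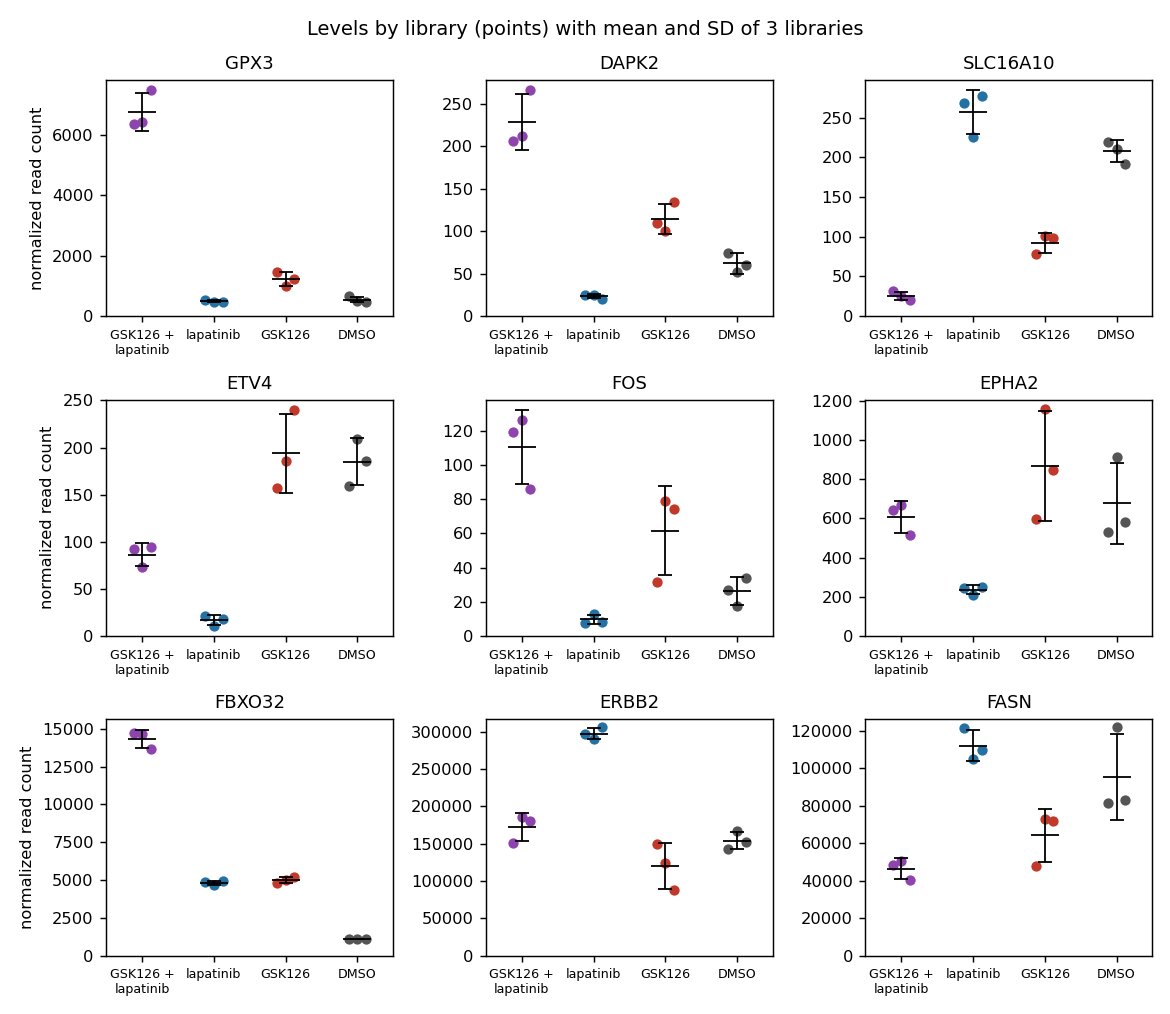
Points are the normalized read counts of single libraries for 9 genes under GSK126 + lapatinib, lapatinib, GSK126 and DMSO; horizontal bars are means and whiskers the SD of 3 libraries. For GPX3 the 3 GSK126 + lapatinib libraries lie between 6347 and 7466 and all others at or below 1468, while the group means of ERBB2 and FASN are highest with lapatinib, and 1 DMSO library of FASN lies above all 3 lapatinib libraries.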

How the data were processed

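RNA was sequenced from 12 SKBR3 libraries, 4 treatments with 3 libraries each, as 75 bp single-end reads, per the labels. Per the submitters' processing notes, the authors used STAR, hg19 and DESeq2. Their versions, the counter, strand and annotation are not given in the sources used here. Each deposited value is a signal, made by the authors by dividing read counts by a library size factor; 100% of values were whole multiples of the smallest step (within 0.01), so reads could be recovered. Normalized read counts are not divided by length, so levels are not compared between genes. Spike-in rows (86) stayed out of the tests, and 27 symbols turned into dates are not named.

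Tests used R 4.3.3 and limma 3.58.1, applied to log2(value + 1) with 4 group means over 12 libraries, leaving 8 residual degrees of freedom, with a trended prior, a filter of at least 10 in at least 3 libraries, and Benjamini-Hochberg adjustment. A fold change on this scale understates changes of low genes. In every list, members near 0 without GSK126 could pass the filter only through libraries with GSK126. Members and gene lists were chosen with earlier results of these data known. Named genes are the 15 largest increases and decreases (called, without overlap, mean of 50 or more on the higher side), up to 4 members of each of 48 lists with the smallest adjusted p, and a fixed set; others are marked, and some genes the rule names are not reported here. Floors of 3 counts per library cover counting error only. Alternatives were pseudocounts of 0.5 and 5, no filter or a filter of 50, TMM, total-count and spike-in rescaling, a constant prior variance, a fit of the 2 groups only, a replicate block, array weights, edgeR 4.0.16 and DESeq2 1.42.0 on recovered reads, and leaving out each library. The procedure was tested on simulated data. Promoter windows came from a RefSeq table of GRCh38.p14, matched by symbol.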

Additional observations from a re-analysis of the deposited data

Results flagged for a closer look

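In 3 genes the effect of GSK126 differed between cells with lapatinib and cells with DMSO, by the limma interaction. GPX3 had an interaction of 2.61 on the log2 scale, DAPK2 one of 2.34 and SLC16A10 one of -2.13. A positive value means that the log2 change by GSK126 lay higher with lapatinib present than without it, and a negative value that it lay lower. For SLC16A10 the change was -3.30 with lapatinib present and -1.17 without it, a larger decrease. The adjusted p of GPX3 was 0.00138, and between 0.000144 and 0.0112 over the replicate block, edgeR and each library left out. The adjusted p of DAPK2 and of SLC16A10 was 0.0466 each. With the replicate block it was 0.207 for DAPK2 and 0.21 for SLC16A10, and with edgeR it was 0.0289 for both. With 1 of the 12 libraries left out, the DAPK2 call was lost in 11 of 12 fits and the SLC16A10 call in 10 of 12. No cause was tested.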

How the results depend on the processing

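Counts of calls moved by more than 1.5 times under the following settings. Total-count rescaling gave 559 genes lower, and the share of increases among calls was 74.9%, against 64.5% as reported. Spike-in rescaling gave 327 higher and 81 lower, with increases at 80.1% of calls. A fit of the 2 groups only gave 2668 higher and 2426 lower (52.4% higher), which contained 1632 of the 1637 and all 900 reported calls; array weights gave 4239 and 4276 (49.8% higher). Added after seeing the data, an edgeR fit of the 2 groups gave 2810 higher and 2164 lower, and a fit of the 2 groups without the first combination library gave 2547 and 2198. Leaving out 1 library gave 1260 to 1381 genes higher and 455 to 656 lower. The interaction was called for 1 to 18 genes when 1 library was left out. Replicate numbers did not pair the libraries (correlations of deviations 0.01, -0.08 and -0.13); with the replicate block 1546 genes were higher, 749 lower, and the interaction was called for 1 gene. edgeR gave 1663 higher and 879 lower, and DESeq2 1916 and 1180. The cause of these differences was not tested.

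Signs turned only for genes without a call. With spike-in rescaling the log2 change was -0.0435 for PSMC6, -0.10 for PSMC2, -0.10 for JARID2, -0.27 for TET2, -0.0438 for HOXC10, -0.0636 for KIF2C, -0.0168 for CCND1, -0.22 for EZH2, -0.46 for ERBB3, -0.17 for MYC and -0.18 for MKI67. ERBB3 was also at -0.011 with TMM, -0.0899 with array weights, and -0.0709 to 0.0611 when 1 library was left out. Of 210 named genes, 85 lost their call with spike-in rescaling, and 12 to 17 did when 1 library was left out. The labels do not describe how the spike-in was added.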

Other observations

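DES, an intermediate filament of muscle, had 47.3, 37.2 and 38.6 with GSK126 + lapatinib, against 1.96, 2.13 and 4.69 with lapatinib (log2 change 3.48 ± 0.45 (SE), adjusted p = 0.000128), and ACTA2, smooth muscle actin, had 195, 189 and 246 with GSK126 + lapatinib, against 99.9, 92.6 and 79.8 with lapatinib (log2 change 1.20 ± 0.25 (SE), adjusted p = 0.00402). Both rose, whereas the fibroblast collagen COL1A1 had 105, 98.7 and 60.7 with GSK126 + lapatinib, against 197, 173 and 153 with lapatinib, and its call for a decrease (log2 change -1.01 ± 0.29 (SE), adjusted p = 0.0292) was lost when any library other than GSK126 + lapatinib library 1 was left out (adjusted p of up to 0.122). Among genes of prostaglandin and leukotriene synthesis, PTGS1 had 549, 557 and 533 with GSK126 + lapatinib, against 90.1, 106 and 109 with lapatinib (log2 change 2.42 ± 0.21 (SE), adjusted p = 5.42e-06), and ALOX5 had 208, 207 and 159 with GSK126 + lapatinib, against 7.83, 17 and 5.63 with lapatinib (log2 change 4.23 ± 0.43 (SE), adjusted p = 1.58e-05). GRB10, an imprinted adaptor of receptor kinases, had 492, 551 and 534 with GSK126 + lapatinib, against 206, 232 and 202 with lapatinib (log2 change 1.30 ± 0.14 (SE), adjusted p = 3.66e-05). The adjusted p-values are from limma.

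The proportions of the spike-in transcripts among themselves correlated at 0.997 to 0.998 between GSK126 + lapatinib library 1 and GSK126 libraries 2 and 3, and at 0.988 to 0.990 between that library and the lapatinib libraries. GSK126 + lapatinib libraries 2 and 3 correlated with the lapatinib libraries at 0.996 to 0.999. MALAT1, a nuclear noncoding RNA named after its values were seen, took 2.34%, 2.64% and 4.29% of gene reads in the GSK126 + lapatinib libraries, against 2.18%, 2.67% and 2.34% in the lapatinib libraries.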
